A study of Mus musculus with 39 samples.

Results

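The genes described here are 9 of the 24100 in the table: the AMPA receptor subunits Gria1, Gria2 and Gria4, the kainate receptor subunits Grik1, Grik2, Grik3, Grik4 and Grik5, and Cacng2, which encodes stargazin. They were chosen by name, through their Entrez identifiers, and not by any measured value, but with earlier results of these data known. All 9 were found, and all 9 passed the filter on low counts in every comparison. AMPA and kainate receptors are glutamate-gated cation channels, each built of 4 subunits, that carry fast excitatory transmission. Cerebellar granule cells, which are small glutamatergic neurons, receive it from mossy fibres. GluA2 (Gria2) makes an AMPA receptor almost impermeable to calcium once its pore codon has been edited in the RNA. GluK1 to GluK3 (Grik1, Grik2 and Grik3) can form kainate channels alone, whereas GluK4 and GluK5 (Grik4 and Grik5) need one of them as a partner. Stargazin carries AMPA receptors to the surface and the synapse, and the granule cells of stargazer mice, which lack it, have almost no AMPA current.

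Polyadenylated RNA was sequenced as single-end 75-base reads in 39 libraries. Translating ribosome affinity purification (TRAP) pulls down a ribosomal protein, L10a, tagged with EGFP, and with it the RNA on those ribosomes. Tg(NeuroD1-Egfp-L10a) mice gave 5 TRAP libraries each from cerebellar lysates at postnatal days 7, 12 and 21 (P7, P12 and P21), and Tg(Atoh1-Egfp-L10a) mice, the Math1 line, gave 4 from progenitors isolated at P7. There is 1 input library of cerebellar RNA at each of the 3 ages. Granule cells from P6 or P7 pups were collected before plating (DIV0, days in vitro), after 2 days with DMSO (DIV2), and after 5 days with 100 nM UNC1999, which inhibits both EZH1 and EZH2, or with DMSO (DIV5), in 2 libraries each. All of these mice are C57Bl/6J. Cells from P7 mice with Atoh1-Cre were cultured for 5 days, 4 libraries from Ezh1 fl/fl mice, labelled Ezh1(cKO/cKO) (cKO), and 5 from Ezh1 wt/wt mice (wt). Their strain is not given, both genotypes carry Cre, and Cre acts only in cells that have expressed Atoh1. The labels do not tie libraries to separate animals, so p-values measure the spread between these libraries, which may be technical.

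Libraries held 12.1 to 38.5 M counts each. Levels are CPM, the count scaled to the library's total, and, unless per kb is written, compare a gene with itself only. Log2 fold changes come from an edgeR quasi-likelihood fit with TMM scaling, ± SE, and a change is called at a Benjamini-Hochberg adjusted p under 0.05 over all genes of the fit. Granule progenitor markers (Atoh1, Gli1 and Mki67) summed to between 1212 and 2034 CPM in the Math1 TRAP libraries and between 173 and 263 CPM in Neurod1 TRAP at P7. Granule neuron markers such as Neurod1 and Gabra6 summed to between 3559 and 11040 CPM in the Neurod1 TRAP libraries. Markers of other cells were also present in the TRAP libraries at all ages.

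The pore codon that sets calcium permeability in GluA2 lies in a short stretch that the 8 channel subunits share, and it is shown for that reason. Each sequence is 30 coding bases of the longest complete coding transcript in GENCODE vM21 (GRCm38, mm10), 5′ to 3′ on the coding strand, with the pore codon in capitals.
Gria1: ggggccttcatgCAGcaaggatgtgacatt
Gria2: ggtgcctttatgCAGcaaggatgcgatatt
Gria4: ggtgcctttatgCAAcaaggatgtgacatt
Grik1: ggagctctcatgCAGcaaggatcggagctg
Grik2: ggagctctcatgCAGcaaggttctgagctc
Grik3: ggctccctgatgCAGcaaggatctgaactg
Grik4: ggaggcttcatgCAGcaaggctccactatt
Grik5: ggtggcttcatgCAGcagggctcggagatc
In all 8 the genome encodes glutamine here. The Gria2 codon is codon 607, at chr3:80706911-80706913 on the minus strand in exon 11 of 16. In neurons, nearly every Gria2 RNA is edited to an arginine codon by ADAR2, the product of Adarb1, and Grik1 and Grik2 RNA is edited in part at the matching codons 636 and 621. Counts per gene do not show the share edited, nor the flip and flop exons of the AMPA subunits. Of the 30 bases, Gria4 shares 27 and Gria1 26 with Gria2, against 20 to 23 in the kainate subunits. The longest run that transcripts of 2 of the 9 genes share exactly was 55 bases, between Gria2 and Gria4, so no whole 75-base read can come from both.

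In Neurod1 TRAP the 3 AMPA subunits rose together between P7 and P12 and then parted. From P12 to P21 Gria2 fell back, Gria4 rose a little further and Gria1 was not called. In bulk samples such as these, fewer cells of a type and less RNA per cell cannot be told apart. Of the 9 genes, 5 were higher and 2 lower at P12 than at P7, and the same test called 68.2% of the 14759 genes tested, 31.5% as higher and 36.7% as lower. Between P12 and P21, 2 were higher and 3 lower, beside 65.1% of all genes (32.4% higher, 32.7% lower). Across the whole interval all 9 were called, 6 higher and 3 lower at P21 than at P7, beside 81.5% of all genes (38.9% higher, 42.5% lower). Being called was therefore common among all genes, and the 9 differed from each other in direction and timing. Their median log2 fold change at P21 against P7 was 0.38, beside -0.05 over all genes.

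Markers of other cell types moved over the same ages. All 5 Purkinje cell markers were higher at P12 than at P7 and again at P21 than at P12, with sums of 178 to 260 CPM at P7, 439 to 529 CPM at P12 and 636 to 767 CPM at P21. Of 6 interneuron markers, 4 were higher and 1 lower in the first step, and 1 was higher and 1 lower in the second, with sums of 71.5 to 101 CPM at P7, then 125 to 167 CPM at P12 and 155 to 222 CPM at P21. The 7 markers of the oligodendrocyte lineage were split, 3 up and 2 down in the first step and 4 up and 3 down in the second. The part of these cells in the changes of the 9 genes with age was not tested.

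Gria2 (Entrez 14800, chr3:80681450-80804227, GRCm38.p6) had 49.8, 65.9, 69.5, 52.2 and 80.4 CPM at P7. The P12 libraries had 108.3, 111.3, 105.1, 128.9 and 126.9 CPM, and the P21 libraries 63.1, 80.1, 71.3, 80.1 and 69.3 CPM. Every P12 library lay above every library of the other ages, and the P21 and P7 libraries overlapped. The log2 fold change was 0.90 ± 0.12 at P12 against P7 (adjusted p 1.4e-06) and -0.52 ± 0.12 at P21 against P12 (adjusted p 0.00079). At P21 against P7 it was 0.38 ± 0.12 (adjusted p 0.0079), and 0.20 ± 0.13 (adjusted p 0.17) when libraries were scaled by total count only.

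Gria4 (Entrez 14802, chr9:4417893-4796234), a subunit known for fast channel kinetics, had 66.5, 77.4, 87.8, 68.5 and 95.6 CPM at P7. Its P12 libraries had 124.3, 137.2, 130.4, 139.2 and 145.0 CPM, and its P21 libraries 160.8, 129.5, 148.5, 158.3 and 164.7 CPM. All P12 and P21 libraries were above all P7 libraries. The fold change was 0.80 ± 0.13 at P12 against P7 (adjusted p 9.9e-06) and 1.12 ± 0.13 at P21 against P7 (adjusted p 4.2e-08). The later step, 0.33 ± 0.13 at P21 against P12 (adjusted p 0.027), is small: the groups overlapped, scaling by total count only gave 0.17 ± 0.14 (adjusted p 0.27), and 4 of the 10 refits without a single library missed the threshold.

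Gria1 (Entrez 14799, chr11:57011571-57330244) was the lowest of the 3 AMPA subunits in these libraries, also per kb. It had 10.7, 11.5, 17.5, 13.4 and 23.2 CPM at P7, 25.9, 29.0, 29.8, 27.4 and 34.4 CPM at P12, and 31.7, 31.7, 34.5, 32.0 and 27.6 CPM at P21. All libraries of the later ages exceeded all P7 libraries. The fold change was 0.97 ± 0.19 at P12 against P7 (adjusted p 0.00015) and 0.26 ± 0.19 at P21 against P12 (adjusted p 0.24). Bergmann glia, the radial glia around Purkinje cells, are known for GluA1 and GluA4 receptors without GluA2, and the glial markers are given here for that reason. Those 6 markers summed to between 162 and 301 CPM at P7, 267 and 341 CPM at P12, and 223 and 262 CPM at P21, and none of the 6 was at 0 in any library. Their part in the rises of Gria1 and Gria4 was not tested.

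**Figure D1:**
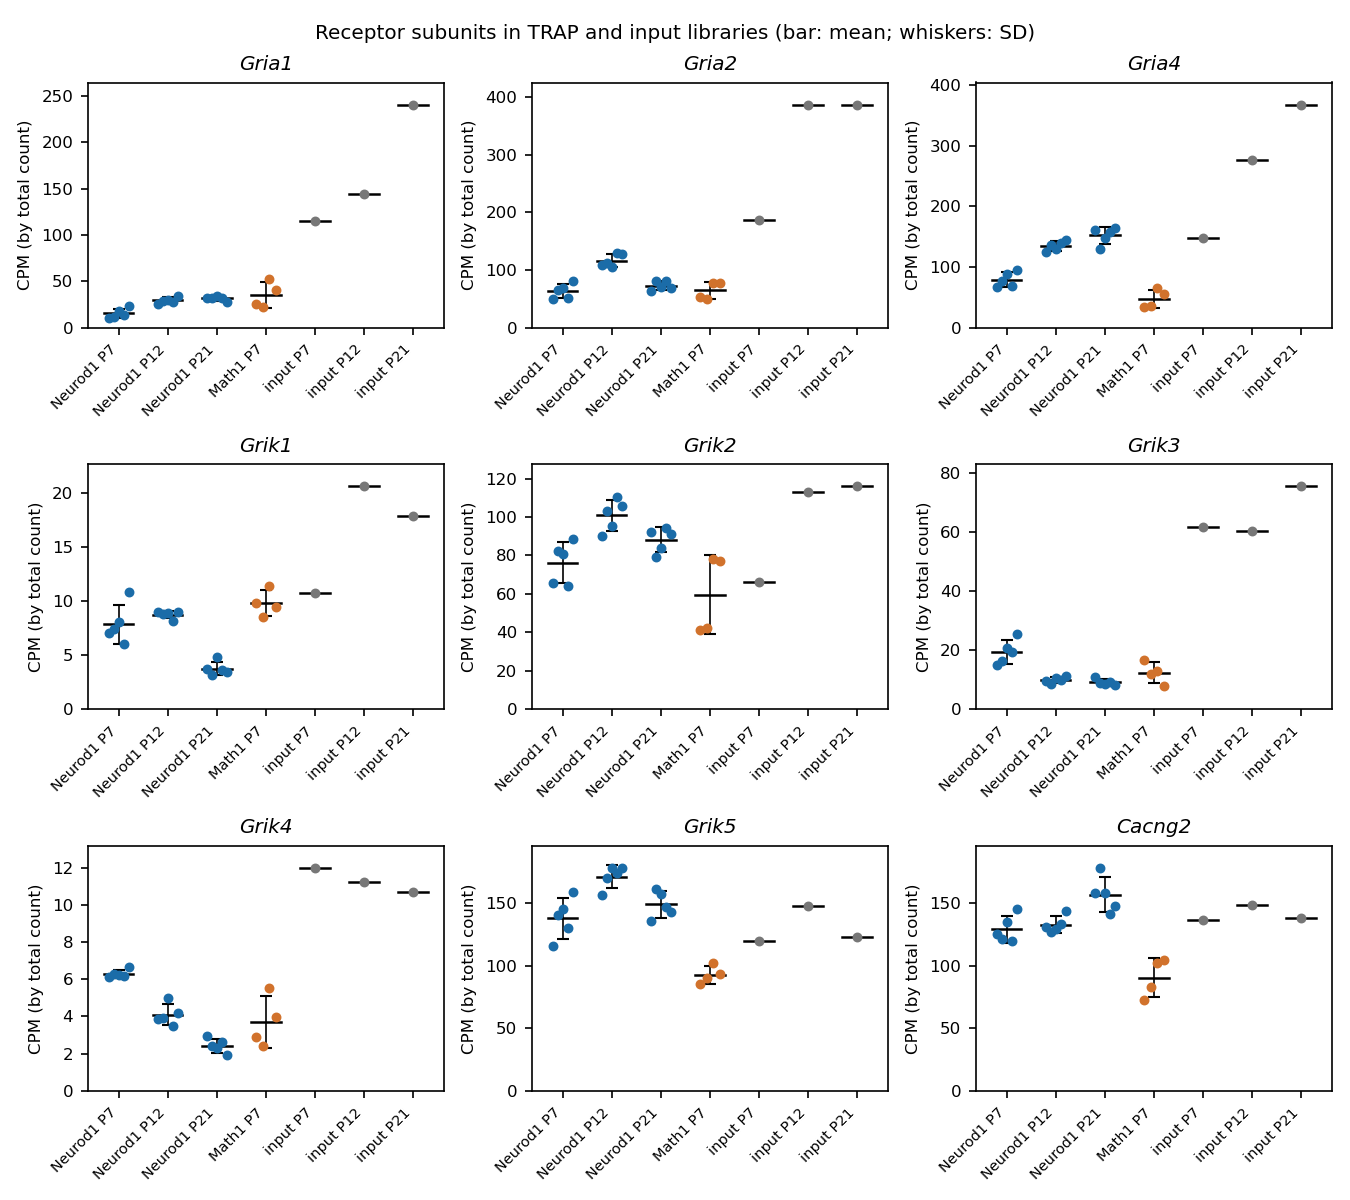
CPM of each gene in every Neurod1 TRAP library at P7, P12 and P21, Math1 TRAP library at P7 and input library, with means and SDs (no SD for inputs, 1 library each). Gria2 peaks at P12 in Neurod1 TRAP, Grik4 falls at each step, and Gria1 and Grik3 are several times higher in the inputs than in the TRAP libraries.

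Among the kainate subunits, Grik2 and Grik5 were the highest per kb and rose early, while Grik1, Grik3 and Grik4 were the lowest per kb and fell. Grik2 (Entrez 14806, chr10:49093680-49790161), the principal kainate receptor subunit known from granule cells, averaged 76.3 ± 10.7 CPM at P7, 101 ± 8.08 CPM at P12 and 88.2 ± 6.48 CPM at P21 (SD, n = 5 each). Its fold change was 0.43 ± 0.14 at P12 against P7 (adjusted p 0.0084) and -0.04 ± 0.14 at P21 against P12 (adjusted p 0.80). Grik5 (Entrez 14809, chr7:25009849-25075694), its high-affinity partner, averaged 138 ± 16.3, 171 ± 8.91 and 149 ± 10.4 CPM at the same ages. It rose by 0.34 ± 0.07 at P12 against P7 (adjusted p 2e-04), and between P12 and P21 the change was -0.05 ± 0.07 (adjusted p 0.56). For both, the P21 and P7 groups overlapped. Their calls at P21 against P7 were lost when libraries were scaled by total count only, at 0.21 ± 0.15 for Grik2 (adjusted p 0.19) and 0.11 ± 0.07 for Grik5 (adjusted p 0.17).

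Grik3 (Entrez 14807, chr4:125490259-125714173) had 14.99, 16.2, 20.8, 19.4 and 25.5 CPM at P7. The P12 libraries held 9.53, 8.57, 10.6, 9.83 and 11.3 CPM, and the P21 libraries 10.9, 8.81, 8.64, 9.33 and 8.38 CPM. The P12 and P7 libraries did not overlap, and the P21 and P12 libraries did. The fold change was -0.93 ± 0.15 at P12 against P7 (adjusted p 1.2e-05) and 0.04 ± 0.15 at P21 against P12 (adjusted p 0.85). Grik1 (Entrez 14805, chr16:87895901-88290863) fell later. It had 8.98, 8.75, 8.85, 8.17 and 8.97 CPM at P12 and 3.74, 3.19, 4.79, 3.61 and 3.41 CPM at P21, a fold change of -1.07 ± 0.13 (adjusted p 2.8e-07) with no overlap. Between P7 and P12 its change was 0.18 ± 0.13 (adjusted p 0.20). Grik4 (Entrez 110637, chr9:42518182-42945000) fell at both steps, to 4.09 ± 0.56 CPM at P12, against 6.29 ± 0.23 at P7, and to 2.44 ± 0.37 CPM at P21. Those changes were -0.60 ± 0.16 (adjusted p 0.0019) and -0.60 ± 0.16 (adjusted p 0.003), and no 2 ages overlapped. Whether the timing of Grik1 and Grik3 differs was not tested.

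Cacng2 (Entrez 12300, chr15:77991919-78120220) was already abundant at P7. It averaged 129 ± 10.8 CPM at P7, 133 ± 6.70 CPM at P12 and 157 ± 13.9 CPM at P21. No change was called at P12 against P7 (0.06 ± 0.08, adjusted p 0.51), and at P21 against P12 it rose by 0.39 ± 0.08 (adjusted p 2e-04), although the groups overlapped. Its P7 level was 129 CPM of the 157 CPM at P21, before Gria2 and Gria4 had risen. Fold changes at P21 shift with the scaling: by total count only, the median gene moved to -0.15 at P21 against P12, beside 0.00 with TMM.

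Other genes of the receptor complex, 35 in a list, changed in both directions. At P12 against P7, 16 were higher and 8 lower, and at P21 against P12, 12 were higher and 12 lower, with a median of 0.14 in the first step and -0.13 in the second, beside -0.04 and 0.00 over all genes. Nptx1, a secreted pentraxin that gathers AMPA receptors at synapses, rose most, by 3.44 ± 0.13 and then by 1.40 ± 0.12 (adjusted p 1e-14 and 1.4e-09). Dlg4, which encodes the scaffold PSD-95, rose by 0.65 ± 0.07 and then by 0.64 ± 0.07 (adjusted p 2.4e-08 and 4e-08). Shisa8, an AMPA receptor auxiliary subunit found in granule cells, rose by 1.08 ± 0.17 in the first step (adjusted p 9.4e-06). Adarb1, the editing enzyme of the Gria2 pore codon, rose at each step, by 0.58 ± 0.08 and 0.40 ± 0.08 (adjusted p 2.1e-06 and 0.00018). Stargazin's relative Cacng7 also rose at each step, by 0.73 ± 0.07 and 0.47 ± 0.07 (adjusted p 1.3e-08 and 6.5e-06), whereas Cacng4 fell at both, by 1.62 and 1.29 on the log2 scale (adjusted p 9.5e-08 and 1.4e-05). Cacng8 and Cnih2, whose products slow AMPA receptor closing, changed by 0.02 ± 0.12 and -0.06 ± 0.15 in the first step (adjusted p 0.89 and 0.72), then fell by 2.21 and 1.24 (adjusted p 2.1e-12 and 2.7e-07). Grip1, a scaffold that binds the GluA2 tail, fell by 1.43 and then by 2.27 (adjusted p 5.1e-12 and 2.5e-14). Neto1, a kainate receptor auxiliary subunit, fell by 1.48 and 1.15 on the log2 scale (adjusted p 2.5e-06 and 0.00035), whereas its relative Neto2 had 0.13 ± 0.14 in the first step (adjusted p 0.39) and rose by 0.44 ± 0.13 in the second (adjusted p 0.0072).

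**Figure D2:**
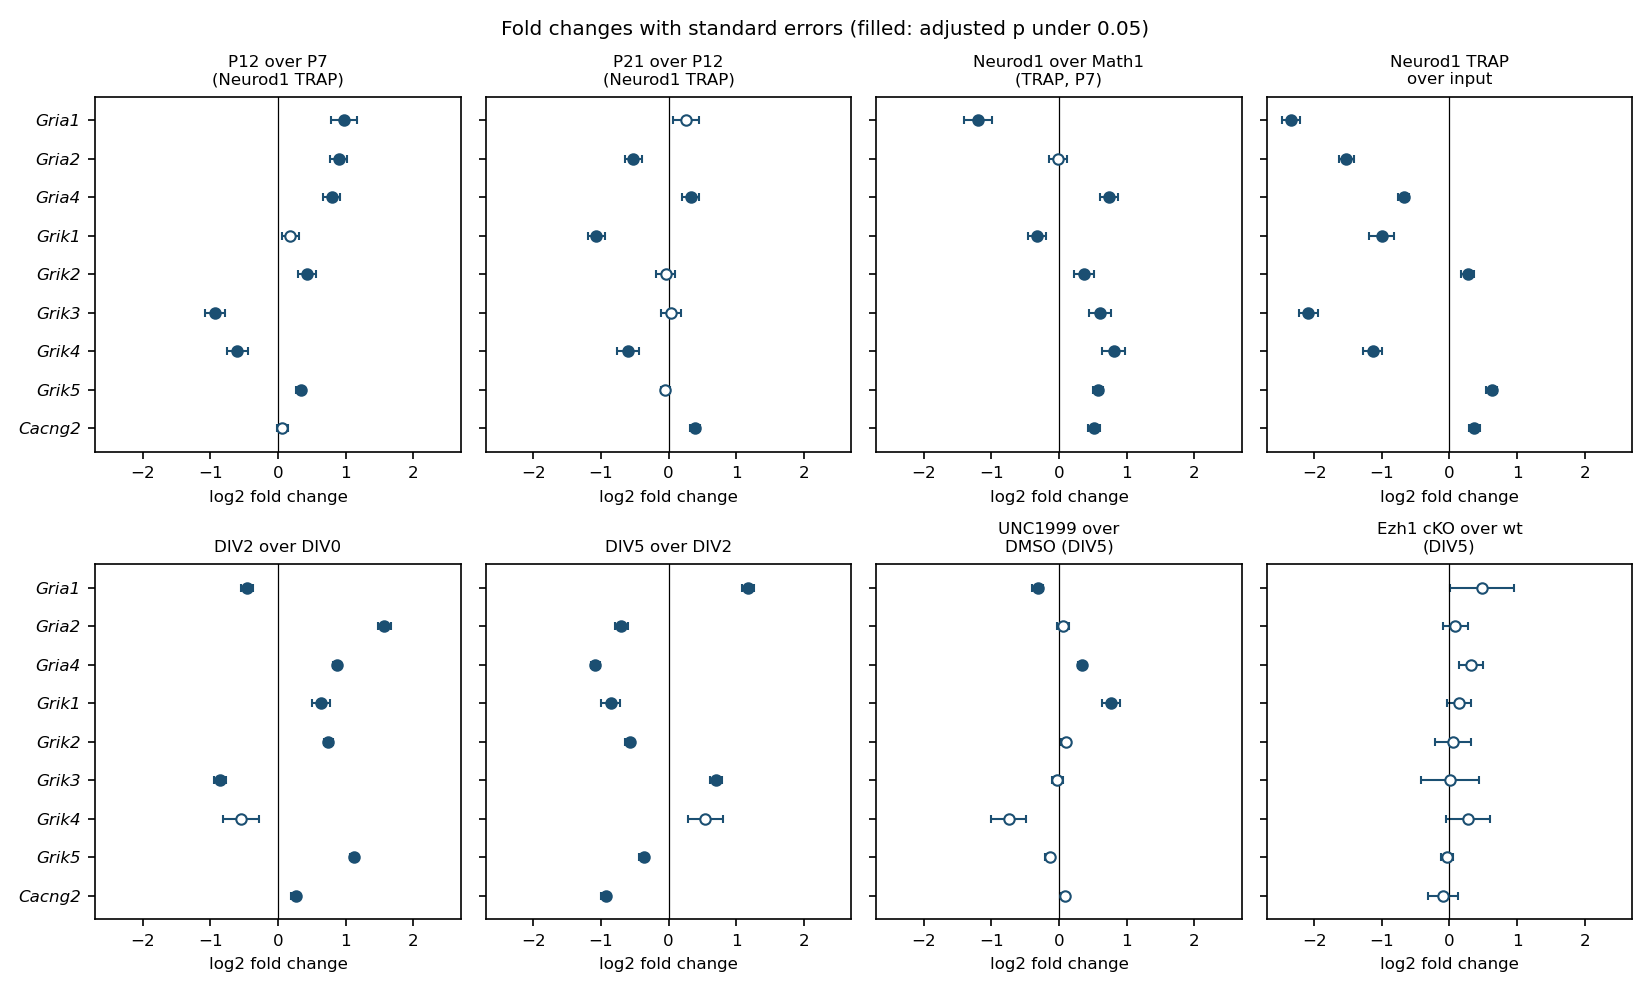
Log2 fold change ± SE of each gene in 8 comparisons, filled where the adjusted p is under 0.05. The AMPA subunits rise together at P12 over P7, Gria1 goes against Gria4 in Neurod1 over Math1 TRAP, and no point is filled for Ezh1 cKO over wt.

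At P7 the Neurod1 line set against the Math1 line compares differentiating granule cells with progenitors. The Neurod1 libraries are from whole cerebellar lysates and the Math1 libraries from isolated cells, so line and preparation cannot be told apart. Gria4, Grik5, Cacng2, Grik4, Grik3 and Grik2 were higher in Neurod1 TRAP, Gria1 and Grik1 were lower, and Gria2 was not called. The test called 72.4% of the 14759 genes, 36.5% as higher and 35.8% as lower. Gria2 averaged 63.5 ± 12.7 CPM in Neurod1 TRAP and 64.4 ± 14.8 CPM in Math1 TRAP (SD, n = 5 and 4), a log2 fold change of -0.02 ± 0.13 (adjusted p 0.92). Gria4 had between 66.5 and 95.6 CPM in Neurod1 TRAP, and 34.4, 36.4, 65.7 and 54.8 CPM in Math1 TRAP. The groups did not overlap, and the change was 0.74 ± 0.14 (adjusted p 6.5e-05). Grik5 was higher by 0.57 ± 0.07 (adjusted p 5.5e-07) and Cacng2 by 0.52 ± 0.09 (adjusted p 1.7e-05), both also without overlap. Grik4, at 6.29 ± 0.23 CPM in Neurod1 TRAP and 3.70 ± 1.40 CPM in Math1 TRAP, was higher by 0.81 ± 0.18 (adjusted p 0.00031), and Grik3 was higher by 0.61 ± 0.16 (adjusted p 0.0019).

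Markers of other neurons were higher in Neurod1 TRAP too. All 5 Purkinje markers were higher, with sums of 178 to 260 CPM in Neurod1 TRAP and 24.4 to 45.4 CPM in Math1 TRAP. Of the 6 interneuron markers 5 were higher, with sums of 71.5 to 101 CPM in Neurod1 TRAP and 11.3 to 20.5 CPM in Math1 TRAP, and all 3 unipolar brush cell markers were higher, at 69.3 to 129 CPM in Neurod1 TRAP and 42.0 to 55.2 CPM in Math1 TRAP. Their part in the differences of the 9 genes was not tested.

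Gria1 went the other way, with 10.7 to 23.2 CPM in Neurod1 TRAP and 25.9, 22.1, 52.3 and 40.5 CPM in Math1 TRAP, a change of -1.20 ± 0.20 (adjusted p 2.4e-05). The 6 glial markers summed to between 162 and 301 CPM in Neurod1 TRAP and 260 and 522 CPM in Math1 TRAP, and 4 of them were lower and 1 higher in Neurod1 TRAP. Their part in the Gria1 difference was not tested. The Math1 libraries came in 2 pairs. Replicates 3 and 4 both had more Gria1, Gria2, Gria4, Grik2, Grik4, Grik5 and Cacng2 than replicates 1 and 2. They also had more of the glial markers (461 to 522 against 260 to 262 CPM). Granule progenitor markers summed to 1212 and 1342 CPM in replicates 3 and 4, against 1663 and 2034 CPM in replicates 1 and 2. Granule neuron markers summed to 1814 and 1745 CPM, against 1480 and 1439 CPM. Depth was 15.7 and 12.1 M counts, against 25.7 and 30 M. The part of these differences in the split of the receptor genes was not tested. Against replicates 3 and 4 alone, Gria1 was at -1.58 ± 0.20 (adjusted p 1.3e-06) and Gria4 at 0.43 ± 0.12 (adjusted p 0.0055). Against replicates 1 and 2 alone, they were at -0.70 ± 0.19 (adjusted p 0.0032) and 1.12 ± 0.12 (adjusted p 1e-07). Gria2, at -0.02 against all 4, averaged over unlike pairs: it was at -0.25 ± 0.14 (adjusted p 0.14) against replicates 3 and 4 and at 0.26 ± 0.14 (adjusted p 0.11) against 1 and 2. Grik2 rested on that choice, at 0.01 ± 0.11 (adjusted p 0.94) against replicates 3 and 4 and 0.83 ± 0.11 (adjusted p 2.1e-06) against 1 and 2, beside 0.37 ± 0.15 (adjusted p 0.03) against all 4. Grik1, at -0.32 ± 0.13 (adjusted p 0.036), missed the threshold against either pair.

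Of the 35 other receptor genes, 20 were higher and 8 lower in Neurod1 than in Math1 TRAP, with a median of 0.58 beside 0.01 over all genes. Dlg4 averaged 405 CPM in Neurod1 TRAP and 102 CPM in Math1 TRAP (1.99 ± 0.08, adjusted p 5.6e-15). Adarb1 was higher by 1.78 ± 0.09 (adjusted p 3.5e-13), at 242 against 70.4 CPM, beside a Gria2 level that was not called. Neto2 was higher by 1.34 ± 0.15 (adjusted p 8e-08). Gsg1l, an auxiliary subunit that dampens AMPA receptors, was lower by 1.99 on the log2 scale (adjusted p 1.2e-09), at 39.5 CPM in Neurod1 TRAP and 156 CPM in Math1 TRAP.

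Set against total cerebellar RNA, the granule cell TRAP libraries held a lower level of most of these transcripts and a higher level of Grik5. With age in the fit and 1 input at each age, 6 of the 9 genes were lower and 3 higher in TRAP, and 77.8% of the 15479 genes were called, 36.6% as higher and 41.2% as lower. The median log2 fold change of the 9 was -1, beside -0.07 over all genes. Gria1 had 15.3 ± 5.17, 29.3 ± 3.23 and 31.5 ± 2.49 CPM in TRAP at P7, P12 and P21, and 116, 145 and 241 CPM in the inputs, a change of -2.34 ± 0.14 (adjusted p 4.1e-11). Grik3 was lower by 2.09 on the log2 scale (adjusted p 2e-10), with 61.7, 60.2 and 75.4 CPM in the inputs. Gria2 changed by -1.52 ± 0.11 (adjusted p 8.4e-10), and its inputs held 186, 386 and 386 CPM. The inputs, 1 library an age, thus stood at the same level at P12 and P21, where TRAP was lower at P21. Gria4, whose inputs held 147, 277 and 368 CPM, changed by -0.67 ± 0.08 (adjusted p 5.1e-07), Grik4 by -1.14 ± 0.14 (adjusted p 3.4e-07) and Grik1 by -1 ± 0.19 (adjusted p 7.7e-05). The fit gives 1 value for all 3 ages. The TRAP mean of Grik1 was 0.73, 0.43 and 0.21 of the input at P7, P12 and P21, and that of Grik4 0.53, 0.36 and 0.23. Whether these ratios differ with age was not tested.

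Grik5 was higher in TRAP by 0.63 ± 0.08 (adjusted p 7e-07), with 120, 147 and 123 CPM in the inputs, and 14 of the 15 TRAP libraries lay above the input of their age. Grik2 and Cacng2 were called higher, at 0.27 ± 0.09 (adjusted p 0.013) and 0.37 ± 0.08 (adjusted p 0.00045). Both turned to -0.14 ± 0.10 and -0.02 ± 0.07 (adjusted p 0.23 and 0.80) when libraries were scaled by total count only. That scaling moved the median of all genes to -0.46. Markers of other cerebellar cells were lower in TRAP as well. The 5 Purkinje markers summed to 178 to 767 CPM in TRAP and 1902 to 4375 CPM in the inputs, the 6 interneuron markers to 71.5 to 222 CPM and 521 to 1198 CPM, and the 6 glial markers to 162 to 341 CPM and 1596 to 1693 CPM. The part of these cells in the input levels of the 9 genes was not tested. Of the other receptor genes, 11 were higher and 20 lower in TRAP. Gria3, the remaining AMPA subunit, was lower by 1.94 (adjusted p 7.4e-10) and Cacng5 by 2.87 (adjusted p 5.3e-12), while Shisa8 was higher by 1.62 ± 0.14 (adjusted p 3e-09) and Cnih2 by 0.89 ± 0.11 (adjusted p 6e-07).

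Levels per kb compare different genes only roughly, since a gene's counts need not lie in its coding sequence. Cacng2 has 0.969 kb of coding sequence and 5.51 kb of annotated exons. Per kb of coding sequence, Cacng2 stood highest in Neurod1 TRAP at P21, at 162 ± 14.3 CPM per kb. Gria4 at 56.3 ± 5.22 and Grik5 at 50.7 ± 3.55 came next, then Grik2 at 32.4 ± 2.38 and Gria2 at 27.5 ± 2.76. The neighbours Gria4 and Grik5, and Grik2 and Gria2, differed by less than the sum of their SDs. Gria1 followed at 11.6 ± 0.92, Grik3 at 3.34 ± 0.37, Grik1 at 1.32 ± 0.22 and Grik4 at 0.85 ± 0.13. The order at the top depends on the length used: per kb of all annotated exons, Grik5 led at 39.5 ± 2.77, before Cacng2 at 28.4 ± 2.52 and Gria4 at 24.2 ± 2.24.

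The make-up of the AMPA subunit RNA differed widely between the sample groups. These shares are descriptions, taken from CPM per coding kb, and leave out Gria3. Gria3 averaged 11.4 CPM in Neurod1 TRAP at P21, and had 96.0 CPM in the P21 input and 97.6 and 98.5 CPM at DIV5 with DMSO. Counting it would lower the shares below, and by unlike amounts in the different groups. Gria2 made up 40.7 ± 1.45% of Gria1, Gria2 and Gria4 together in Neurod1 TRAP at P7, 41.9 ± 1.59% at P12 and 28.8 ± 3.27% at P21, as Gria4 grew to 59.0 ± 3.88% at P21. In the inputs Gria2 held 42.1% at P7, 48.3% at P12 and 39.4% at P21. The freshly isolated cells had 65.7 ± 0.79% Gria2 at DIV0, and the cultures 78.1 ± 1.74% at DIV2 and 77.2 ± 1.41% at DIV5 with DMSO (SD, n = 2 each). Per exon kb the same shares were lower, at 28.5, 29.4 and 19.1% in Neurod1 TRAP and 52.5, 67.5 and 65.9% in the cultures, with the same order. Kainate subunits together held 59.8 ± 1.54% of the 8 channel subunits per coding kb in Neurod1 TRAP at P7, 49.8 ± 1.00% at P12 and 48.2 ± 1.11% at P21. In the inputs of those ages they held 36.3, 29.3 and 24.7%. Per exon kb the kainate share was higher, at 69.9, 61.1 and 57.9% in Neurod1 TRAP and 44.8, 37.5 and 29.9% in the inputs. Whether kainate or AMPA RNA was the larger part in Neurod1 TRAP at P12 and P21 thus depends on the length used. Within the kainate subunits, per coding kb, Grik5 made up 95.5 to 98.3% of Grik4 and Grik5 on average at the 3 ages. Grik2 grew to 87.4 ± 1.04% of Grik1, Grik2 and Grik3 at P21.

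**Figure D3:**
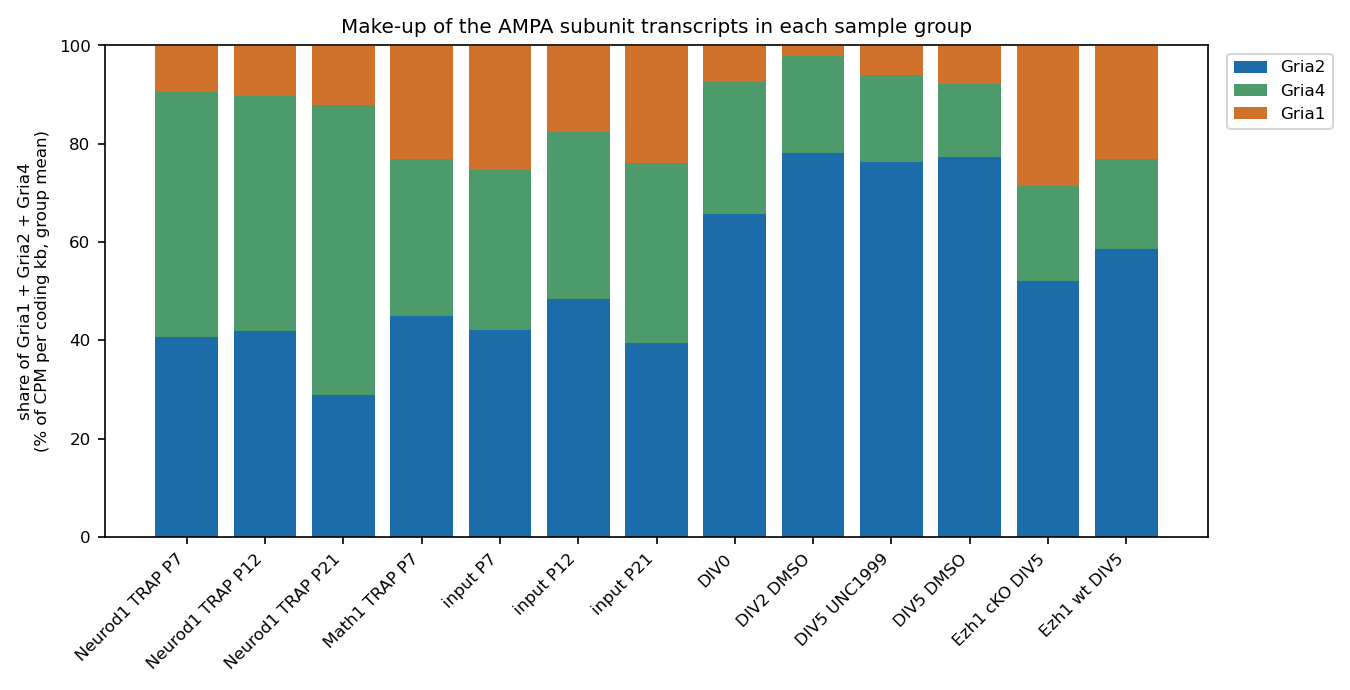
Mean share of Gria2, Gria4 and Gria1 in their summed CPM per coding kb, by sample group. In Neurod1 TRAP Gria4 is the largest part and Gria2 lies between Gria4 and Gria1 (28.8% at P21), whereas Gria2 is the largest part in the cultures with DMSO (78.1% at DIV2).

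In culture, Gria2 led the change between DIV0 and DIV2. Gria2 had 856 and 714 CPM at DIV2 against 264 and 274 CPM at DIV0, a log2 fold change of 1.57 ± 0.10 (adjusted p 9e-07). Of the 9 genes, 6 were higher and 2 lower at DIV2, and 71.3% of the 15978 genes were called, 36.4% as higher and 35% as lower. Grik5 had 248 and 220 CPM at DIV2 against 109.3 and 110.2 CPM at DIV0 (1.12 ± 0.06, adjusted p 7.8e-10), and Gria4 208 and 196 CPM against 113 and 112 CPM (0.87 ± 0.06, adjusted p 8.3e-09). Grik2 rose by 0.75 ± 0.07 (adjusted p 1.6e-07), Grik1 by 0.63 ± 0.13 (adjusted p 0.00062) and Cacng2 by 0.26 ± 0.06 (adjusted p 0.0019). Grik3 fell to 14.1 and 14.9 CPM, against 26.4 and 27.2 CPM at DIV0 (-0.86 ± 0.09, adjusted p 5.2e-07), and Gria1 to 20.6 and 24.1 CPM, against 31.4 and 30.7 CPM (-0.46 ± 0.09, adjusted p 0.00046). Gria2, Gria4, Grik2 and Grik5 were thus higher and Grik3 lower here, as at P12 against P7 in Neurod1 TRAP, with no library shared between the 2 comparisons. Gria1 had opposite signs in the 2 comparisons. Calls were common in both, at 71.3% of genes here and 68.2% at P12 against P7 in Neurod1 TRAP. The share of all genes with the same direction in both was not computed. The shared directions are therefore not shown to be more frequent here than among other genes. Of the 6 glial markers, Gfap and Aqp4 were higher at DIV2, Slc1a3, Gdf10 and Slc1a2 lower and Hopx not called, with a median of -0.33. Gfap averaged 376 CPM at DIV2 and 45.9 CPM at DIV0, and carried the sum, 797 CPM at DIV2 and between 646 and 665 CPM at DIV0.

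At DIV5 with DMSO, 6 of the genes were lower and 2 higher than at DIV2, beside 66.7% of all genes (31.1% higher, 35.7% lower). Gria4 had 97.5 and 113 CPM at DIV5 against 208 and 196 CPM at DIV2 (-1.08 ± 0.06, adjusted p 1.7e-09). Cacng2 had 58.6 and 62.4 CPM against 107 and 102 CPM (-0.93 ± 0.07, adjusted p 1.4e-08), which put it below both DIV0 libraries. Grik1 fell by 0.86, Gria2 by 0.70, Grik2 by 0.57 and Grik5 by 0.37 on the log2 scale (adjusted p 5.7e-05, 0.00023, 3.3e-06 and 0.00011). Gria1 rose to 57.2 and 53.7 CPM, against 20.6 and 24.1 CPM at DIV2 (1.18 ± 0.09, adjusted p 2.9e-08), and Grik3 rose by 0.70 ± 0.09 (adjusted p 6.2e-06). All 6 glial markers rose in the same step, to 2018 to 2107 CPM in sum at DIV5 against 797 CPM at DIV2. All 4 microglial markers rose too, to 303 to 325 CPM in sum against 38.3 to 41.1 CPM. Of 5 granule neuron markers 4 rose (Gabra6, Etv1, Slc17a7 and Cbln1) and 1, Neurod1, fell. Neurod1 had 797 and 816 CPM at DIV5 against 1668 and 1603 CPM at DIV2. It alone carried the fall of their sum, which was 1655 to 1699 CPM against 2181 to 2211 CPM. The part of cell make-up in the Gria1 rise and in the falls of the other genes was not tested.

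Over the whole 5 days, Gria2, Grik5, Gria1 and Grik2 were higher and Cacng2 and Gria4 lower than at DIV0, beside 78.3% of all genes (40.2% higher, 38.2% lower). Gria2, at 485 and 585 CPM at DIV5, was up by 0.88 ± 0.10 (adjusted p 3.8e-05) and Grik5 by 0.76 ± 0.06 (adjusted p 4.9e-08). Gria1 was up by 0.73 ± 0.09 (adjusted p 1.9e-06) and Cacng2 down by 0.67 ± 0.07 (adjusted p 2.6e-07). The smaller changes of Gria4 (-0.21 ± 0.06, adjusted p 0.0061) and Grik2 (0.17 ± 0.07, adjusted p 0.028) lost their calls under other settings. Grik1, Grik3 and Grik4 stood at -0.22 ± 0.14, -0.16 ± 0.08 and -0.01 ± 0.25, none of them called. Stargazin RNA and Gria4 RNA were thus the 2 that ended lower in culture, where both were higher at P21 than at P7 in Neurod1 TRAP. Whether the culture and the tissue differ was not tested, since their libraries were made from different material.

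Of the 35 related genes, 22 were higher and 10 lower at DIV2 against DIV0 (median 1.02, beside 0.02 over all genes). Then 6 were higher and 21 lower at DIV5 against DIV2 (median -0.53, beside -0.05). Shisa8 had 192 CPM at DIV2 and 5.43 CPM at DIV0 on average (5.16 ± 0.08, adjusted p 3e-15). Gsg1l had 3.18 CPM at DIV2 and 92.7 CPM at DIV0 (-4.88 ± 0.16, adjusted p 7.7e-11). Gria3 rose by 2.00 ± 0.07 (adjusted p 2.3e-12), Adarb1 by 1.14 ± 0.05 (adjusted p 5.4e-11) and Dlg2, a scaffold of the PSD-95 family, by 2.39 ± 0.06 (adjusted p 7e-14). At DIV5 against DIV2, Shisa8 and Neto2 fell by 1.33 and 1.40 (adjusted p 1e-10 and 1.6e-10), and Adarb1 was at -0.03 ± 0.05 (adjusted p 0.64).

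Freshly isolated cells and Math1 TRAP both come from progenitors at about the same age, but by different means, and their values are given side by side without a test. Gria2 had 264 and 274 CPM at DIV0, and between 50.3 and 77.8 CPM in Math1 TRAP. Grik2 had 146 and 147 CPM at DIV0, and between 41.0 and 78.2 CPM in Math1 TRAP. Gria1 overlapped, at 31.4 and 30.7 CPM at DIV0 and 22.1 to 52.3 CPM in Math1 TRAP. The granule progenitor markers differed one by one: Atoh1 had 52.1 and 50.6 CPM at DIV0 and 609 to 1309 CPM in Math1 TRAP, whereas Mki67, which marks dividing cells, had 1281 and 1241 CPM at DIV0 and 531 to 636 CPM in Math1 TRAP.

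**Figure D4:**
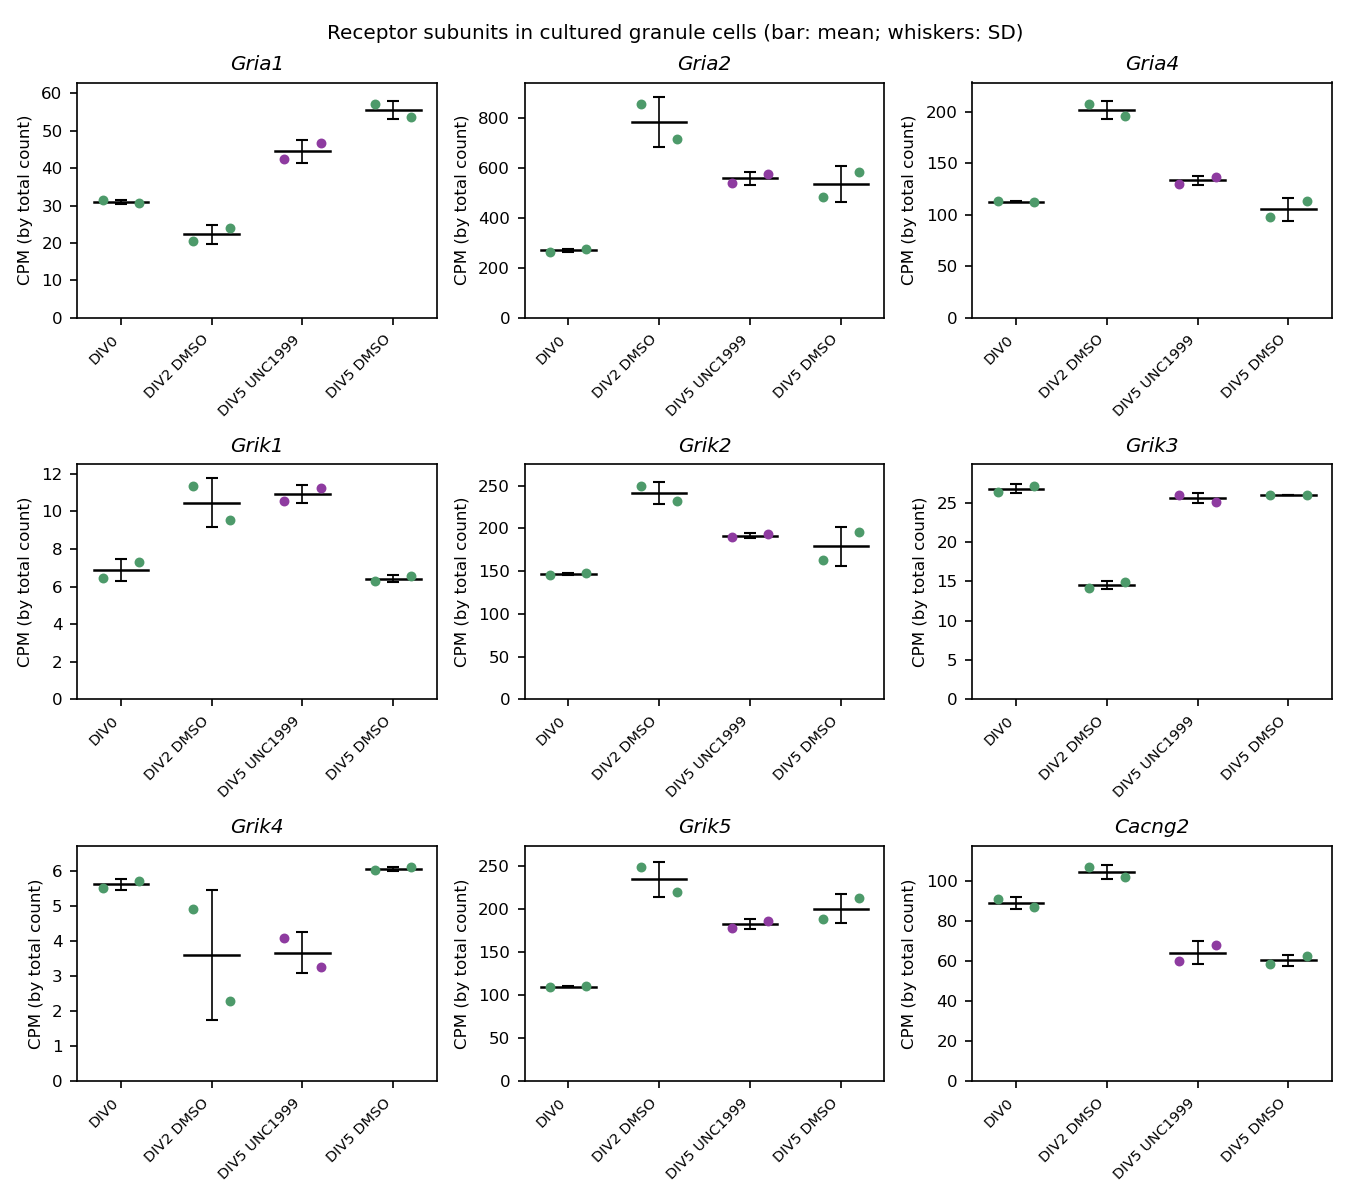
CPM of each gene in the 2 libraries each of DIV0, DIV2 with DMSO, DIV5 with UNC1999 and DIV5 with DMSO, with means and SDs. Gria2, Gria4, Grik2 and Grik5 peak at DIV2, and at DIV5 Grik1 and Gria4 are higher and Gria1 lower with UNC1999 than with DMSO.

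UNC1999 blocks the enzymes that methylate histone H3 at lysine 27, a mark of silenced genes, and the question of the comparison is which genes respond. At DIV5, Grik1 and Gria4 were higher and Gria1 lower with UNC1999 than with DMSO, and 6 of the 9 genes were not called. Of the 15978 genes 11.9% were called, 6.36% as higher and 5.53% as lower. Grik1 had 10.6 and 11.2 CPM with UNC1999, against 6.27 and 6.54 CPM with DMSO, a log2 fold change of 0.77 ± 0.13 (adjusted p 0.0019). Gria4 had 130 and 136 CPM with UNC1999, against 97.5 and 113 CPM with DMSO (0.34 ± 0.06, adjusted p 0.0028). Gria1 had 42.4 and 46.7 CPM with UNC1999, against 57.2 and 53.7 CPM with DMSO (-0.31 ± 0.08, adjusted p 0.022). None of the 3 pairs of groups overlapped, but neither did those of Grik4 and Grik5, which were not called. The share of all genes without overlap was not computed. The Gria1 call was lost in DESeq2 (adjusted p 0.067) and in 3 of the 4 refits without a single library. Grik4 had 4.09 and 3.26 CPM with UNC1999, against 6.03 and 6.12 CPM with DMSO, and was not called (-0.75 ± 0.25, adjusted p 0.087). Gria2, Grik2, Grik3 and Cacng2 lay between -0.03 and 0.10, and Grik5 at -0.14 ± 0.06 (adjusted p 0.18).

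The libraries with UNC1999 had more granule neuron marker RNA and less glial marker RNA. Of 5 granule neuron markers 4 were higher, and in sum they had 2288 and 2321 CPM with UNC1999 against 1655 and 1699 CPM with DMSO. Of the 6 glial markers 4 were lower, and in sum they had 1700 and 1859 CPM with UNC1999 against 2018 and 2107 CPM with DMSO. Their part in the Gria1 and Gria4 differences was not tested. Among the other receptor genes, 11 were higher and 2 lower with UNC1999, a median of 0.16 beside 0.00 over all genes. Nptx1 was higher by 1.36 ± 0.11 (adjusted p 1.7e-05), at 82.4 CPM with UNC1999 and 32.1 CPM with DMSO. Frrs1l, whose product helps to assemble AMPA receptors in the endoplasmic reticulum, was higher by 0.61 ± 0.06 (adjusted p 3e-05), Dlg2 by 0.46 ± 0.05 (adjusted p 0.00011) and Neto2 by 0.37 ± 0.06 (adjusted p 0.0017). Gria3 and Grip1 were the 2 lower, by 0.34 each (adjusted p 0.0016 and 0.044).

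In the Ezh1 cultures no change was called for any of the 9 genes. The targeted gene itself, Ezh1, had 33.8 to 36.5 CPM in cKO and 40.8 to 49.9 CPM in wt, without overlap. Which exons are deleted is not given in the sources used here, so a count over the whole gene does not measure the loss. In edgeR 0 of the 14461 genes, 0%, passed, 169 had an unadjusted p under 0.05, none of them of the 9, and DESeq2 called 1 gene, none of the 9. With the replicate number as a block 0 genes passed, but 1430 had an unadjusted p under 0.05, 2 of the 9 among them. With libraries 1 and 2 against 3 to 5 as a factor, a split made after seeing the data, 1 gene passed, none of the 9. In that fit 1145 genes had an unadjusted p under 0.05, 1 of the 9 among them. The low count of 169 thus depends on leaving the split out of the fit. Among the 32 related genes tested 0 passed. Gria3 and the other genes blank in these columns, most of them on X, were left out.

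The libraries numbered 1 and 2 stood apart from those numbered 3 to 5 in both genotypes. The 6 glial markers summed to 8736 and 11590 CPM in cKO and 5248 and 11170 CPM in wt in libraries 1 and 2, and to 4686 and 5899 CPM in cKO and 2370 to 4598 CPM in wt in the others. The 4 microglial markers summed to 165 and 186 CPM in cKO and 190 and 221 CPM in wt in libraries 1 and 2, and to 14.3 and 23.0 CPM in cKO and 12.9 to 28.4 CPM in wt in the others. Grik2 followed that split, at 94.0 and 89.5 CPM in cKO and 89.9 and 88.2 CPM in wt in libraries 1 and 2, and at 168 and 176 CPM in cKO and 137 to 164 CPM in wt in the others. Gria1 had 255, 300.5, 128 and 177 CPM in cKO libraries 1 to 4, and 138, 321, 107, 55.7 and 141 CPM in wt libraries 1 to 5. The 3 libraries with the most glial marker RNA had the 3 highest Gria1 levels, and the library with the least had the lowest. The part of glial RNA in the Gria1 values was not tested.

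Gria1 was at 0.48 ± 0.47 in cKO against wt (adjusted p 1), with a standard error about as large as the change. Gria4 had 114, 146, 171 and 160 CPM in cKO and 81.7, 105, 157, 114 and 131 CPM in wt, which overlapped (0.32 ± 0.18, adjusted p 1). Within libraries 1 and 2 it was at 0.44 ± 0.18 (adjusted p 0.72), and within 3 to 5 at 0.31 ± 0.13 (adjusted p 0.95). For Gria1 the values within those libraries were 0.25 ± 0.38 (adjusted p 0.81) and 0.61 ± 0.31 (adjusted p 0.95). The labels name no batch that sets libraries 1 and 2 apart, and this split was made after seeing the data. Grik5, at 197 to 226 CPM in cKO and 194 to 233 CPM in wt, varied least, with a change of -0.03 ± 0.09 (adjusted p 1). The remaining 6 genes lay between -0.10 and 0.27.

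**Figure D5:**
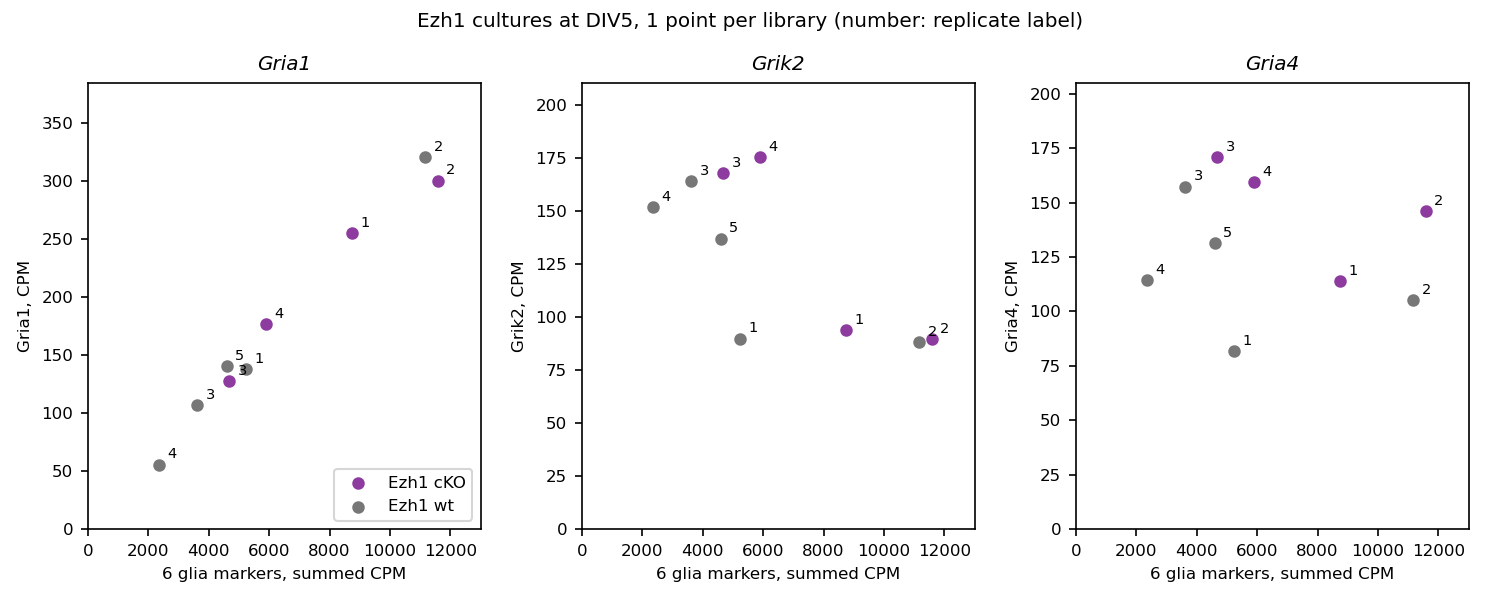
Gria1, Grik2 and Gria4 CPM against the summed CPM of 6 glial markers in the 4 Ezh1 cKO and 5 wt libraries, with each library's replicate number. Gria1 spans 55.7 to 321 CPM, with its 3 highest values at the 3 highest marker sums, and the libraries numbered 1 and 2 have the lowest Grik2.

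The effects of UNC1999 and of Ezh1 cKO were compared directly in 1 fit. The difference of effects was 0.63 ± 0.26 for Grik1 (unadjusted p 0.035, adjusted p 1), 0.03 ± 0.27 for Gria4 and -0.79 ± 0.79 for Gria1 (adjusted p 1 for both). In edgeR 0 of 15453 genes passed (0%), 247 had an unadjusted p under 0.05, with Grik1 the only one of the 9. DESeq2 called 7 genes and the fit with the replicate number as a block 2, none of the 9. With that block 1356 genes had an unadjusted p under 0.05, 2 of the 9 among them. The calls of Grik1, Gria4 and Gria1 under UNC1999 are therefore not shown to differ from the Ezh1 cKO effect.

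Over the 13 sample groups, genes with the most similar pattern of mean log2(CPM + 1) were sought among 11973 genes with at least 10 CPM in a group, as a description over groups that share libraries' depth and makeup. Gria1 was most like Hepacam (r = 0.972), Metrn (0.967) and Lcat (0.965), of which Hepacam encodes a glial adhesion protein. Gria2 was most like Pcdhb18, Atrn and Atp8a1 (0.986 to 0.976), Gria4 like Fa2h, Ric3 and Cdc37l1 (0.945 to 0.941) and Cacng2 like Armc1, Ap1ar and Lysmd4 (0.979 to 0.961). Grik2 was most like Fut11, Tmem120b and Pcdhga6 (0.978 to 0.958) and Grik5 like Rilp, Brinp3 and Lrpap1 (0.974 to 0.947). Grik3 was most like Mob3b, Slc25a32 and Cyth3 (0.969 to 0.940), Grik4 like Wnt7b, Arl4a and Mro (0.945 to 0.933) and Grik1 like Birc2, Fem1c and Zfp287 (0.900 to 0.881). Among the 9 themselves the closest pairs were Grik3 with Grik4 (0.90) and Gria2 with Grik2 (0.86), and Cacng2 ran against Grik2 (-0.52) and Gria2 (-0.46).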

How the data were processed

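The authors deposited 1 table of estimated counts, given as whole numbers and without normalization. Salmon 0.8.2 and mm10 appear in the submitters' processing notes, with no role stated; annotation, strand setting and filters are not given in the sources used here. Of 24100 Entrez identifiers 24045 matched a symbol, which leaves 55 without, and 1041 genes, most on X or Y, are blank in the 9 Ezh1 columns and absent from their totals. The members, the related and marker lists and the tests were chosen with earlier results of these data known.

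Genes were filtered with filterByExpr (minimum count 10, minimum total 15), scaled by TMM and tested two-sided with edgeR 4.0.16 (robust quasi-likelihood, R 4.3.3) in 11 comparisons, with Benjamini-Hochberg adjustment over all genes of a comparison. One fit held the 4 TRAP groups, another the 4 culture groups of C57Bl/6J cells, and a further one the Neurod1 TRAP and input libraries, with age as a factor. The scripts were tested on simulated counts. DESeq2 1.42.0, scaling by library size, no filter, the replicate number as a block and leaving out each library were alternatives. The Ezh1 split by library number was added after seeing the data. Lengths and sequences are from GENCODE vM21 and gene coordinates from RefSeq (GRCm38.p6). Deviations of same-numbered Ezh1 libraries correlated at 0.857 to 0.928 in 4 of 4 pairs, but those of differently numbered libraries on the same side of the split between 1 and 2 and 3 to 5 correlated at 0.803 to 0.925, so pairs by number cannot be told apart from that split. Depth was 12.1 to 38.5 M counts, and reads carry no molecular identifiers. Named genes are the 9, the related genes used, marker genes beside a member, and the 3 most similar genes to each.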

Additional observations from a re-analysis of the deposited data

Results flagged for a closer look

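Each of the 9 genes was looked at for a library far from the others in the 6 groups of 4 or 5 libraries, 54 group tests in all, and 2 had one, where chance alone gives about 1 in 20. Grik1 in Neurod1 TRAP library 4 at P12 had 8.17 CPM, below the 8.75 to 8.98 CPM of the others. Grik4 in Neurod1 TRAP library 5 at P7 had 6.68 CPM, above the 6.11 to 6.27 CPM of the others. Both gaps are small beside the changes with age reported for these genes.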

How the results depend on the processing

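The count of the 9 genes called stayed within 1.5 times in all 11 comparisons under every alternative run. Gria2 against Math1 TRAP, recomputed after seeing the data and not called in any setting, changed sign against Math1 replicates 1 and 2 alone (0.256) and ranged from -0.121 to 0.077 with a library left out. Signs also turned for Grik2 and Cacng2 in TRAP against input by library size only (-0.135 and -0.021), and for Gria4 in the difference between the UNC1999 and Ezh1 cKO effects (DESeq2 -0.001, replicate block -0.014, leaving out a library -0.113 to 0.109). By library size only, calls were lost for Gria4 at P21 against P12 (0.17), Gria2, Grik2 and Grik5 at P21 against P7 (0.20, 0.21 and 0.11) and Gria4 at DIV5 against DIV0 (-0.10). That scaling moved the share of calls that were higher to 35.7%, beside 49.8%, at P21 against P12, to 25.6%, beside 47.1%, against input, and to 57.4%, beside 46.6%, at DIV5 against DIV2; fitting the DIV5 libraries alone moved it to 43.8%, beside 53.5%, under UNC1999. DESeq2 lost Grik2 at DIV5 against DIV0 (0.16) and Gria1 under UNC1999 (-0.33), where it called 955 genes beside 1899. Leaving out 1 library lost 25 calls: Grik1 and Grik2 against Math1 TRAP (Grik1 without Math1 replicate 1 or 3 or Neurod1 replicate 1, 2, 3 or 4, at -0.33 to -0.25; Grik2 without Math1 replicate 1 or 2 or Neurod1 replicate 2, 3 or 5, at 0.23 to 0.35), Gria4 at P21 against P12 (without P12 replicate 1 or 3 or P21 replicate 1 or 5, 0.28 to 0.31), Grik2 against input without the P7 input (0.16), Cacng2 at DIV2 without DIV0 replicate 2 (0.17), Gria4 at DIV5 against DIV0 without DIV0 replicate 2 or DMSO replicate 1 (-0.20 and -0.14), Grik2 there without DIV0 replicate 1 or 2 or DMSO replicate 2 (0.16, 0.20 and 0.05), and Gria1 under UNC1999 without DMSO replicate 1 or either UNC1999 replicate (-0.25, -0.26 and -0.38). Genes called under UNC1999 ranged from 934 to 1296 in those refits. Leaving out a library also gained calls: the count of the 9 genes called reached 8 at P12 against P7, beside 7. At DIV2 against DIV0 and at DIV5 against DIV2 it reached 9, beside 8, where Grik4 had been the gene not called. The replicate block in the Ezh1 fit gave Gria1 0.64 ± 0.25 and Gria4 0.37 ± 0.09 (adjusted p 0.49 for both), and the block lost no call of the 9 genes where it was fitted. At DIV2 against DIV0 and at DIV5 against DIV2, 9 of the genes had an unadjusted p under 0.05 with the block, beside 8 without it. In the TRAP fit same-numbered libraries correlated at -0.515 to 0.338 and in the culture fit at -0.313 to 0.15, so those numbers do not pair them. The causes of these shifts were not tested. Depth limits Grik4 most, at 1.93 CPM in its lowest library.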
